A study of Mus musculus with 12 samples.

Results

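Neutrophils store their antimicrobial proteins in granules, and 10 genes for these proteins were followed here in mouse bone marrow-derived monocytes (BMDMs). Mpo, Elane, Prtn3 and Ctsg encode proteins of the primary granules, Ltf, Camp, Ngp and Lcn2 encode proteins of the specific granules, and S100a8 and S100a9 encode the cytosolic protein calprotectin. The genes were taken by name from the 21899 genes of the deposited table, all 10 were found there, and all 10 were among the 11670 genes that passed the filter on low counts. The libraries were made from BMDMs of C57BL/6 mice (C57BL/6J in the study's methods, which give an age of a few weeks). Bone marrow was cultured overnight before cytokines were added, and the labels name no sorting step. M-CSF, which sustains monocytes and macrophages, was given at 50 ng/ml, and RANKL, which turns them toward osteoclasts, at 100 ng/ml. The MR group received these cytokines, and the other groups received them together with dBRD9, with JQ1, or with dexamethasone (DEX) and iBRD9. Each of the 4 groups had 3 libraries. dBRD9 makes the cell destroy BRD9, which belongs to a variant (non-canonical) BAF complex that moves nucleosomes, and iBRD9 blocks the bromodomain of the same protein. JQ1 displaces the BET bromodomain proteins from acetylated chromatin, and DEX is a glucocorticoid. DEX and iBRD9 were given only in combination, and what each contributes to a change cannot be told apart. The labels do not say whether the libraries of a group came from separate cultures, so the p-values measure only the spread between these libraries, which may be technical.

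Granule proteins are made in order as a neutrophil matures in the marrow. Promyelocytes make the primary granule proteins, the later myelocytes and metamyelocytes make the specific granule proteins, and calprotectin accumulates toward maturity. Circulating neutrophils keep the proteins but have shut off most of these transcripts. Granulocyte and monocyte progenitors share part of this program, and monocytes also transcribe S100a8 and S100a9. The factors known to drive the genes are the C/EBP family, with C/EBPα at the progenitor stage and C/EBPε at the specific granule stage, together with PU.1, RUNX1, MYB and GFI1.

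The upstream sequences of the members were read to show which of the binding letters of these factors they carry. RefSeq promoter windows of 250 bases before the annotated start were searched on both strands for a C/EBP motif (TTNNGCAA), a PU.1 and ETS motif (GAGGAA), a RUNX motif (TGTGGT) and an AP-1 motif (TGANTCA). No match of one motif overlapped a match of another in the member windows. All windows came from a RefSeq table built on GRCm38.p6, and each matched GRCm39 at 1 place, which gave the positions below. The PU.1 and ETS letters stood in 7 of 10 member windows, against 23.3% of the 32851 promoter windows of the table, and they stood in each of the primary granule genes. These 4 promoters are shown 5′ to 3′ for that shared element, with motif matches in capitals and bases in GENCODE exons left out.
Mpo: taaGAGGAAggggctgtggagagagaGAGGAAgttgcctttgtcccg
Elane: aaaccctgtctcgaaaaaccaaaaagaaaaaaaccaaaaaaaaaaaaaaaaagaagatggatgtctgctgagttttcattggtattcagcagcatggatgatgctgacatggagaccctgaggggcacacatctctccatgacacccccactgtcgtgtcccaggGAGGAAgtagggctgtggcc
Prtn3: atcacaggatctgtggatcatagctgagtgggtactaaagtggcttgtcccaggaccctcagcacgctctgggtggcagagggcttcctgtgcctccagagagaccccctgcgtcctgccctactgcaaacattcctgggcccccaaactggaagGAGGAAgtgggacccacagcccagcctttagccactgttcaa
Ctsg: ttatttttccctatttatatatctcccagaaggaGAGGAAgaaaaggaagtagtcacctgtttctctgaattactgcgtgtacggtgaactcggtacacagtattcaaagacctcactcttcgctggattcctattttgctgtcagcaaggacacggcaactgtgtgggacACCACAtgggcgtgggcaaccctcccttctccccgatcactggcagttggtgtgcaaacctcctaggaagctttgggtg
On GRCm39 the printed stretch of Mpo lies at chr11:87684360-87684406, that of Elane at chr10:79721896-79722080 and that of Prtn3 at chr10:79715251-79715447, all on the plus strand, and that of Ctsg at chr14:56340032-56340281 on the minus strand. The printed stretch of Prtn3 lies inside the GENCODE gene, whose start is 5191 bases before the RefSeq start. The match in Elane began 85 bases before the RefSeq start and that in Prtn3 95 bases before it. In Ctsg a RUNX match on the opposite strand is also in capitals.

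The C/EBP letters stood in 4 of 10 member windows, namely Ltf, Ngp, Lcn2 and S100a9, against 9.56% of all windows. The specific granule genes Ltf and Ngp are shown for the same 8 letters, TTGGGCAA or its reverse complement.
Ltf: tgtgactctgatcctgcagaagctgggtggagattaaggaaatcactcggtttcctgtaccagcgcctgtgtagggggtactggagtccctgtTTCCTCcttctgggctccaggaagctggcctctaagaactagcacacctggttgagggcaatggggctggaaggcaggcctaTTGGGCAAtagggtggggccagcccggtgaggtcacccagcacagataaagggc
Ngp: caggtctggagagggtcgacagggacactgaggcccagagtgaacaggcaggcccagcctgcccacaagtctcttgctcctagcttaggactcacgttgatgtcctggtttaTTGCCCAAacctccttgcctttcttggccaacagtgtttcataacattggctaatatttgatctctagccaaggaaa
These stretches lie on the plus strand at chr9:110848110-110848338 (Ltf) and chr9:110248626-110248814 (Ngp), and Ltf also carries the PU.1 and ETS letters on the opposite strand, in capitals. Ngp has a further C/EBP match 11 bases before the RefSeq start, in bases that GENCODE counts as exon and that are not printed. The RUNX letters were found in 2 of 10 windows (Ctsg and S100a9) against 14.05% of all windows, and the AP-1 letters in 0 of 10 against 6.75%. The window of Camp held none of the 4 motifs. A match of letters is a description of the sequence and was not tested as a binding site.

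On GRCm39, by GENCODE, several members neighbour each other. Prtn3 (chr10:79710310-79719008) and Elane (chr10:79722081-79724051) follow each other on the plus strand, and S100a8 (chr3:90567118-90578128, plus) and S100a9 (chr3:90599931-90603071, minus) lie close on opposite strands. Camp (chr9:109676442-109678685, minus), Ngp (chr9:110248815-110252086, plus) and Ltf (chr9:110848339-110871835, plus) lie on chromosome 9. Mpo is at chr11:87684407-87695239 (plus), Ctsg at chr14:56337338-56340031 (minus) and Lcn2 at chr2:32274645-32278264 (minus).

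The libraries held 14875951 to 18067758 gene counts. The labelled cell type was borne out by macrophage lineage markers, since Csf1r, the M-CSF receptor, had at least 23284 counts and Cd68 at least 12866 in every library. Of the markers of mature neutrophils, the most defining were nearly absent: Ly6g, the neutrophil surface antigen, had 0 to 4 counts per library, Cxcr2, a neutrophil chemokine receptor, 0 to 10, and Retnlg, a transcript of mature neutrophils, 0 to 5. Of the 20 genes on the list of mature neutrophil markers, 11 did not pass the filter. Others on it were present in MR: the G-CSF receptor gene Csf3r, named after its values were seen, stood at 29.8 ± 4.21 CPM, Lst1 at 25.0 ± 6.33 CPM and Padi4 at 19.4 ± 1.87 CPM. Albumin (Alb), a hepatocyte transcript, divided the libraries, at 0 to 2 counts in 5 of them (MR libraries 1 and 2 and the whole DEX and iBRD9 group) and at 738 to 1031 counts in the remaining 7. In bulk RNA of this kind, fewer cells of a type and less RNA per cell cannot be told apart.

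The members were transcribed at low to moderate levels in the MR cultures. Levels can be compared between genes per length, in the authors' FPKM, read fragments scaled by gene length and library depth. S100a9 was highest, at 79.0 ± 5.61 FPKM (SD, n = 3), and ranked 518th of the table's genes by this measure. Ngp followed at 57.5 ± 1.84 FPKM, S100a8 at 23.6 ± 4.18 FPKM and Elane at 10.3 ± 1.85 FPKM, and the libraries of these neighbours in the order did not overlap. The next 4 genes lay close together: Ltf at 6.40 ± 0.247 FPKM, Ctsg at 6.08 ± 1.05, Camp at 5.66 ± 0.417 and Prtn3 at 5.05 ± 0.485, and each overlapped the next in its libraries. Lcn2 (3.53 ± 0.881 FPKM) and Mpo (3.31 ± 0.498 FPKM) were lowest and overlapped each other. Thus no granule class stood as a block in this order. Together the 10 genes held 0.0192 to 0.0211% of all counts in the MR libraries.

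JQ1 lowered every member. In CPM (counts scaled to a common library size by TMM), the 10 genes together stood at 192, 186 and 205 CPM in the MR libraries and at 28.4, 35.5 and 41.4 CPM in the JQ1 libraries. By the edgeR quasi-likelihood test with Benjamini-Hochberg adjustment over 11670 genes, 10 of 10 members fell at an adjusted p under 0.05. The background is high in this comparison, as 31.6% of all tested genes fell and 30.0% rose. The median log2 fold change of the members was −2.39, with 10 of 10 below 0, against −0.01 over all tested genes, and it was the same with Camp set at its bound. In 10 of 10 members the JQ1 libraries lay wholly below the MR libraries, which held for 32.6% of all tested genes. With libraries scaled by their total counts alone, the median over all genes moved to −0.20 and the calls to 2216 higher and 5170 lower, from 3503 and 3687, and all members were still lower. Hexim1 (1.54 ± 0.07, SE) and Brd2 (2.23 ± 0.05), known responders to BET inhibition, rose on the log2 scale.

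**Figure D1:**
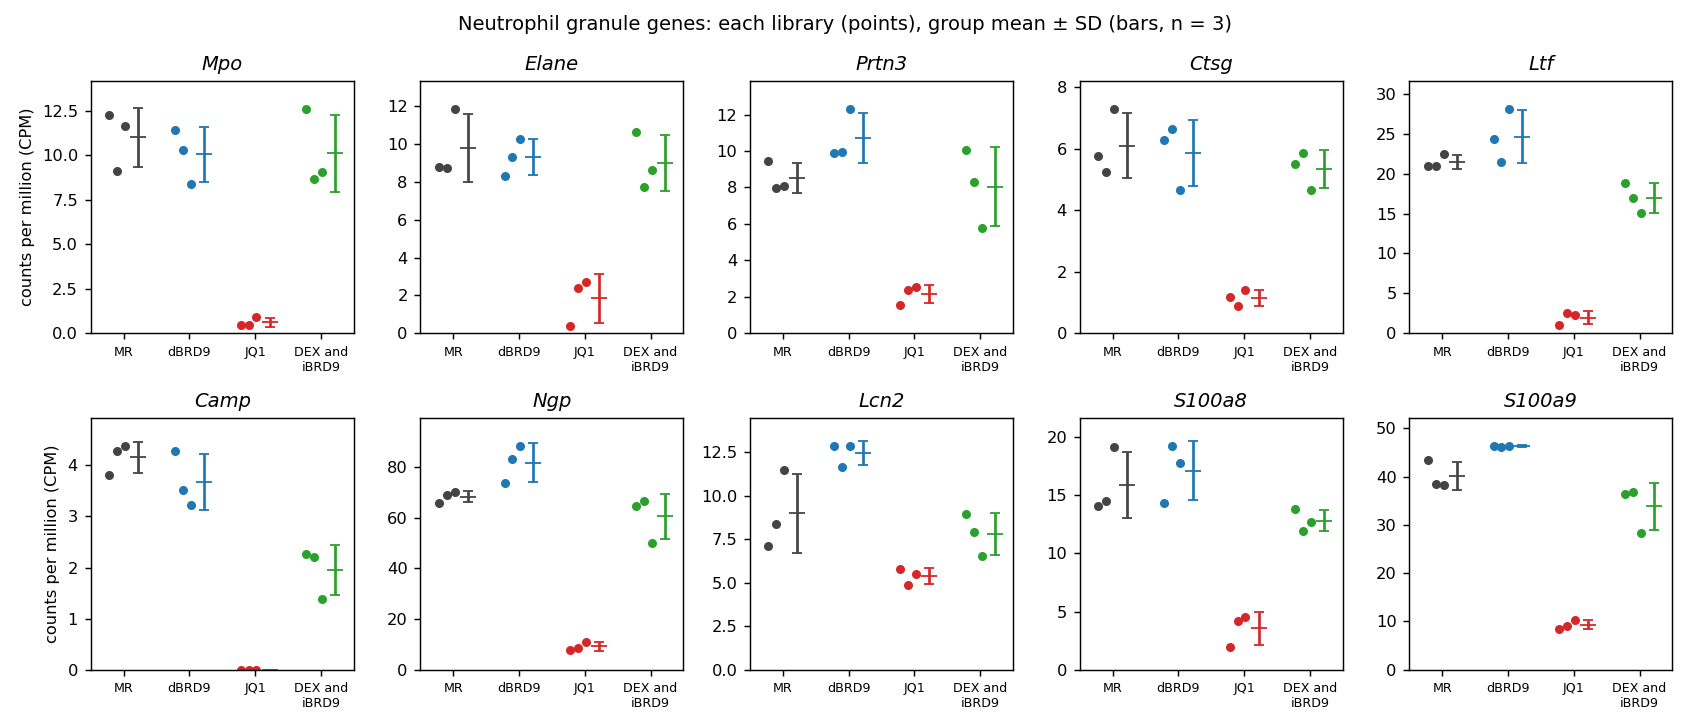
Level of each of the 10 genes in every library in CPM (linear axes from 0), by group, with the group mean and SD beside the points (n = 3). The JQ1 points lie below those of every other group in each panel, and Camp is at 0 in all 3 JQ1 libraries.

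The primary granule genes encode myeloperoxidase and 3 serine proteases, and among them Mpo fell most. Mpo was at 12.3, 9.11 and 11.7 CPM in MR and at 0.443, 0.432 and 0.908 CPM in JQ1, a log2 fold change of −4.20 ± 0.27 (18.4-fold lower, adjusted p = 6.4e-14). All JQ1 values of this heme peroxidase gene were below 1 CPM, on 6, 7 and 13 counts. Elane, the gene of neutrophil elastase, had 8.81, 8.74 and 11.9 CPM in MR and 0.369, 2.41 and 2.72 CPM in JQ1 (−2.38 ± 0.33, 5.21-fold, adjusted p = 9.1e-06). JQ1 library 1 was far below the other JQ1 libraries for this gene, with 5 counts against 39 in each of the others, and without it the log2 fold change was −1.93. Prtn3, the gene of proteinase 3, had 9.46, 7.99 and 8.06 CPM in MR and 1.55, 2.35 and 2.51 CPM in JQ1 (−1.98 ± 0.22, 3.94-fold, adjusted p = 8.8e-09). Ctsg, the gene of cathepsin G, had 5.76, 5.25 and 7.29 CPM in MR and 1.18, 0.865 and 1.40 CPM in JQ1 (−2.41 ± 0.26, 5.31-fold, adjusted p = 3.4e-09). The 3 protease genes had fitted falls of 3.94- to 5.31-fold against 18.4-fold for Mpo, but in JQ1 library 1 Mpo (6 counts) and Elane (5 counts) were about equally low. Mpo and Prtn3 overlap genes on the opposite strand (the noncoding Gm11505, and Plppr3 at its end), and whether counting used strand is not given in the sources used here. Plppr3 had 23 to 53 counts in the JQ1 libraries.

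The specific granule genes showed both the largest and the smallest falls. Camp, the gene of the antimicrobial peptide cathelicidin, had 65, 80 and 68 counts in the MR libraries and 0 counts in each JQ1 library. Against a floor of 3 counts over the 3 JQ1 libraries together, Camp was at least 61.1-fold lower (4.16 ± 0.304 CPM in MR, adjusted p = 2.4e-11). Ltf, the gene of the iron-binding protein lactoferrin, was at 21.0, 21.0 and 22.4 CPM in MR and at 0.960, 2.53 and 2.30 CPM in JQ1 (−3.44 ± 0.19, 10.9-fold, adjusted p = 2.4e-15). Ngp, a cathelicidin-related granule protein of mice, was the most abundant member in CPM and was at 65.9, 68.8 and 70.1 CPM in MR and at 7.75, 8.71 and 11.1 CPM in JQ1 (−2.89 ± 0.12, 7.42-fold, adjusted p = 1.6e-16). Lcn2 encodes the siderophore-binding lipocalin, which many inflamed cells besides neutrophils also make. Its levels were 7.11, 8.36 and 11.5 CPM in MR and 5.76, 4.88 and 5.52 CPM in JQ1 (−0.74 ± 0.18, 1.67-fold, adjusted p = 0.00083). The highest MR value of Lcn2 belonged to library 3, the MR library with Alb counts, and without that library the log2 fold change was −0.53 (adjusted p = 0.018).

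Both calprotectin genes fell by the same amount within their errors. S100a8 was at 14.04, 14.5 and 19.2 CPM in MR and at 1.92, 4.20 and 4.54 CPM in JQ1 (−2.14 ± 0.20, 4.41-fold, adjusted p = 1.4e-09). S100a9 was at 43.4, 38.5 and 38.3 CPM in MR and at 8.49, 9.14 and 10.4 CPM in JQ1 (−2.10 ± 0.11, 4.28-fold, adjusted p = 8.0e-16). Within a library the count of S100a8 was 0.323 to 0.500 times that of S100a9 in MR and 0.226 to 0.459 times in JQ1, so the ratio overlapped between the groups.

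**Figure D2:**
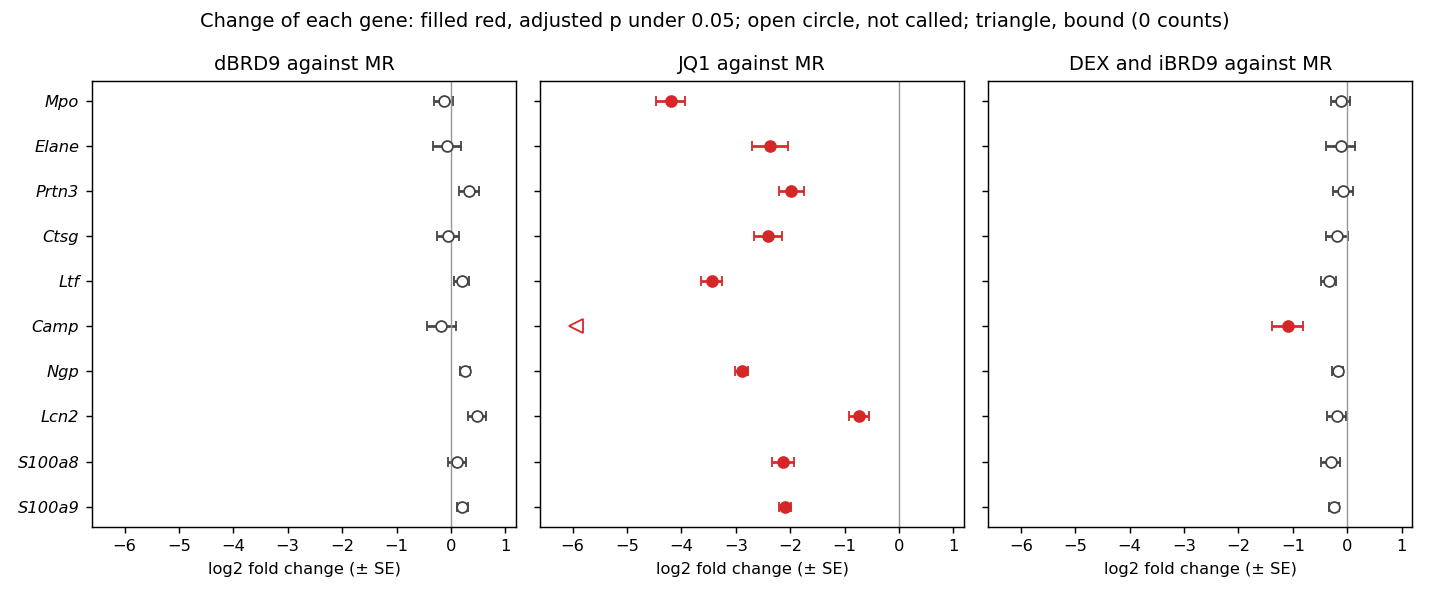
Log2 fold change of each gene against MR (± SE, edgeR) with dBRD9, with JQ1, and with DEX and iBRD9. Filled red points passed an adjusted p of 0.05, open circles did not, and the triangle is the bound for Camp, which had 0 counts with JQ1 (a log2 fold change of −5.93 or lower).

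The falls with JQ1 were unequal between members of the same granule class. Counts of 2 genes within a library do not depend on the scaling of the library, so 10 such ratios were formed, chosen after the values were seen, and each was compared with MR in the 3 treated groups. An exact two-sided permutation test of 3 against 3 libraries cannot give a p below 0.10, and over 30 comparisons the lowest adjusted value was 0.33, so these ratios are described by whether the libraries overlap. Mpo to Prtn3 was 1.14 to 1.45 in MR and 0.184 to 0.361 in JQ1 (p = 0.10, exact permutation test). Mpo to Ctsg was 1.60 to 2.13 in MR and 0.375 to 0.650 in JQ1 (p = 0.10, exact permutation test). Neither ratio overlapped between the groups. Mpo to Elane did overlap, at 0.984 to 1.39 in MR and at 1.2, 0.179 and 0.333 in the JQ1 libraries (p = 0.30, exact permutation test), and so did Elane to Prtn3, at 0.932 to 1.47 in MR and 0.238 to 1.08 in JQ1. Among the specific granule genes, Ltf to Ngp went from 0.305 to 0.320 in MR to 0.124 to 0.291 in JQ1, and Lcn2 to Ngp from 0.108 to 0.164 in MR to 0.497 to 0.743 in JQ1. Ltf to Ngp also lay wholly below MR with DEX and iBRD9, at 0.255 to 0.300, and there it overlapped the JQ1 libraries. S100a9 to Ngp rose from 0.546 to 0.659 in MR to 0.937 to 1.10 in JQ1.

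**Figure D3:**
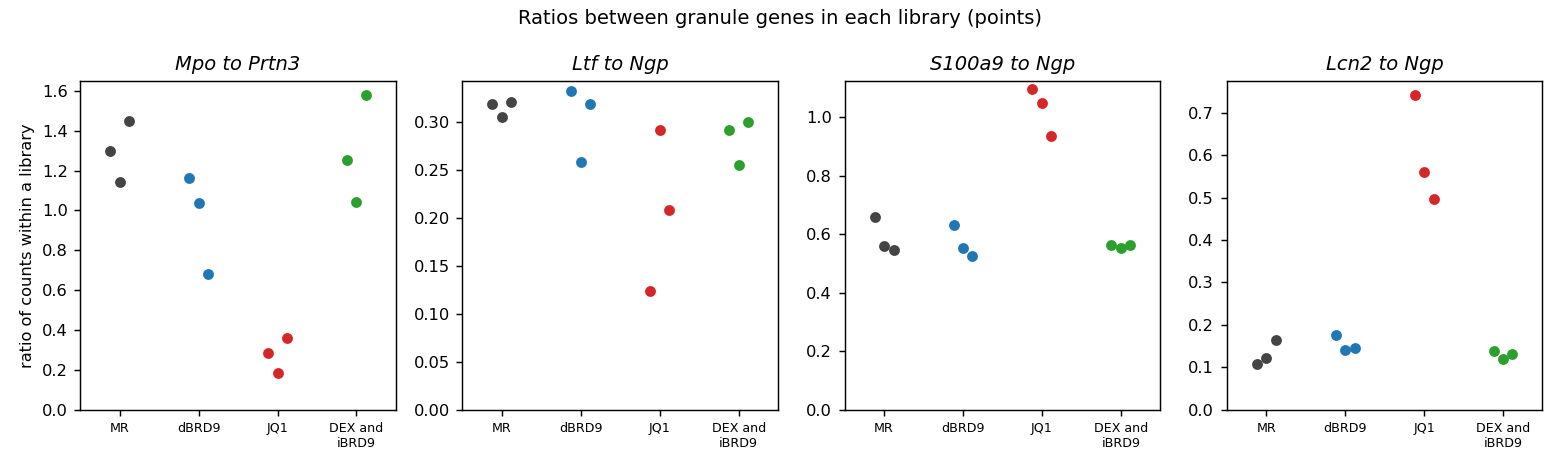
Ratio of the counts of 2 members within each library (linear axes from 0), by group. Mpo to Prtn3 is at or below 0.361 and Lcn2 to Ngp at or above 0.497 in all JQ1 libraries, and the dBRD9 and the DEX and iBRD9 libraries overlap MR in both.

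The comparison of JQ1 with dBRD9 asked how BET inhibition differs from degradation of BRD9. All 10 members were lower in JQ1, against a background of 32.8% of tested genes lower and 30.4% higher, and in 10 of 10 the libraries did not overlap (33.2% of all tested genes). The fall of Ngp was −3.15 ± 0.12 on the log2 scale (81.7 ± 7.53 CPM in dBRD9, edgeR adjusted p = 2.4e-17) and that of Lcn2 was −1.21 ± 0.18 (12.5 ± 0.711 CPM in dBRD9, adjusted p = 7.4e-07). The remaining members fell between −4.07 ± 0.28 (Mpo) and −2.25 ± 0.20 (S100a8), and Camp was at least 54.0-fold lower. All dBRD9 and JQ1 libraries carry Alb counts, so the Alb division does not separate these groups.

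With dBRD9 no member passed the test against MR, against a background of 1.12% of tested genes lower and 0.514% higher by edgeR. At such a background, 0 of 10 does not set the members apart from other genes. At an unadjusted p under 0.05 there were 3 of 10, all higher (Ngp, Lcn2 and S100a9), against 16.6% of all tested genes in either direction, and DESeq2 called 0 of 10, with no adjusted p for 8 of them. Lcn2 was at 12.9, 11.6 and 12.9 CPM in dBRD9 against 7.11, 8.36 and 11.5 CPM in MR (0.48 ± 0.16, adjusted p = 0.13). Ngp was at 73.5, 83.2 and 88.3 CPM against 65.9, 68.8 and 70.1 CPM (0.26 ± 0.10, adjusted p = 0.17). S100a9 was at 46.4, 46.1 and 46.4 CPM against 43.4, 38.5 and 38.3 CPM (0.21 ± 0.10, adjusted p = 0.27). The dBRD9 libraries of these genes and of Prtn3 lay above all MR libraries, 4 of 10 members against 12.2% of all tested genes. The other members had log2 fold changes from −0.18 ± 0.27 (Camp) to 0.20 ± 0.14 (Ltf), and the median of the members was 0.16 against 0.01 over all genes. In a fit of the 6 libraries compared, Ngp passed (adjusted p = 0.016), and without MR library 3, which carries Alb counts as all dBRD9 libraries do, Lcn2 passed (0.68, adjusted p = 0.048). Leaving that library out sets MR libraries without Alb counts against dBRD9 libraries that all carry them. Over all alternative fits, which included a term for the Alb division, the log2 fold change of Lcn2 ranged from 0.12 to 0.68. That of Ngp ranged from 0.19 to 0.33. The part of the Alb division in these differences was not tested beyond these fits.

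With DEX and iBRD9 a single member, Camp, was called lower than in MR, against a background of 1.36% of tested genes lower and 0.591% higher. Camp was at 2.26, 2.21 and 1.38 CPM with DEX and iBRD9 and at 3.82, 4.29 and 4.39 CPM in MR, a log2 fold change of −1.09 ± 0.29 (2.13-fold lower, edgeR adjusted p = 0.042). All 3 values lay below MR, but the call was lost when any library of the groups was left out (−1.21 to −0.89, adjusted p = 0.066 to 0.21) and with a term for the Alb division (−1.05, adjusted p = 0.13), while the size of the change stayed similar. Ltf was at 18.8, 17.0 and 15.02 CPM against 21.0, 21.0 and 22.4 CPM (−0.34 ± 0.14, adjusted p = 0.23), S100a9 at −0.24 ± 0.10 (adjusted p = 0.22) and S100a8 at −0.31 ± 0.17 (adjusted p = 0.40). These 4 genes were the members whose libraries lay wholly below MR, 4 of 10 against 12.8% of all tested genes. The remaining members had log2 fold changes from −0.20 ± 0.17 (Lcn2) to −0.08 ± 0.18 (Prtn3), and the median over the 10 was −0.19 against 0.00 over all tested genes. Camp also took a smaller share relative to Ngp, at 0.0276 to 0.0350 times its count against 0.0579 to 0.0626 times in MR (p = 0.10, exact permutation test). Library 3 of the DEX and iBRD9 group was lowest for 7 of 10 members. This comparison, like those of dBRD9 and JQ1, used the same MR libraries.

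Across the 12 libraries the members moved together, as all of them were low in the JQ1 libraries. The Pearson r of log2 CPM between 2 members was 0.668 to 0.995 (median 0.955, 45 pairs of genes that share libraries). After each group's mean was removed, the median r was 0.404 (−0.193 to 0.956), and it was 0.354 with the JQ1 libraries left out. The closest pair within groups was Elane and S100a8 (r = 0.956), followed by Elane and Ltf (0.945), whose JQ1 library 1 was low for each of these genes. Among all tested genes, the levels most like those of Ngp and S100a9 belonged to Chil3, a chitinase-like protein of macrophages and neutrophils, with r of 0.997 to each over 12 libraries. Chil3 went from 29.9 CPM in MR to 6.40 CPM in JQ1. Angpt2, a vessel growth factor gene, came next for Ngp among genes that are not members (r = 0.995), and for Ltf they were Dhcr7 (0.995), Capg (0.994) and Lmna (0.994). As 714 to 935 genes had an r above 0.95 with these members, such likeness is common in these libraries.

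Other granule genes were read from lists, and most of those tested also fell with JQ1. The background for this and the following lists is that of all tested genes with JQ1, 31.6% lower and 30.0% higher. Of the other primary granule and promyelocyte genes, 7 fell and 2 rose of 10 tested, with a median log2 fold change of −2.54 with a gene at 0 counts set at its bound, against −0.01 over all tested genes. Fcnb, the gene of the lectin ficolin B, had 207 counts over the MR libraries and 2 over the JQ1 libraries, a ratio of 89.1 (95% exact counting interval 24.3 to 740.4). Cst7, a cysteine protease inhibitor, had 99 against 2 counts, a ratio of 42.6 (11.5 to 356.7). Ms4a3, a marker of granulocyte and monocyte progenitors, fell by 3.94 ± 0.52 on the log2 scale, and Serpinb1a, an inhibitor of the granule proteases, by 3.56 ± 0.49. Gstm1 (0.83 ± 0.06), a glutathione transferase, and Srgn (0.50 ± 0.08), the proteoglycan that packs granule proteases, rose. Cd63, a granule membrane protein that macrophages also express, named after its values were seen, fell by 0.41 ± 0.07, from 288 ± 16.8 to 218 ± 27.7 CPM.

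Of the other specific and gelatinase granule genes, 10 fell and 2 rose of 15 tested (median −1.10), and 4 of the 19 in the table did not pass the filter. Mmp9, gelatinase B, which osteoclast precursors also make, fell by 2.56 ± 0.08 on the log2 scale, from 115 ± 6.97 to 19.4 ± 2.44 CPM. Chil3 fell by 2.22 ± 0.13 and Pglyrp1, a peptidoglycan-binding granule protein, by 2.44 ± 0.55, and Itgb2l had 74 counts in MR and 3 in JQ1, a ratio of 21.2 (6.99 to 105). Lyz2, lysozyme, which macrophages make in large amounts, rose by 1.13 ± 0.06 on the log2 scale, from 15091 ± 163 to 32972 ± 2655 CPM, although reads of its near copy Lyz1 may be split between the genes. Adam8, a membrane metalloprotease, rose by 0.47 ± 0.05. With DEX and iBRD9, Mmp9 alone of this list was called, and it rose (0.30 ± 0.07, adjusted p = 0.019), a call lost in 4 of the 6 fits that left out a library (adjusted p = 0.084 to 0.13) and with the Alb term (0.12), with log2 fold changes of 0.28 to 0.36 over these fits. With dBRD9, 0 of 10 and 0 of 15 genes of these lists were called by edgeR, against 1.12% of all tested genes lower and 0.514% higher.

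Of 9 tested genes on the list of mature neutrophil markers, 6 fell and 1 rose with JQ1 (median −1.83). The 20 genes summed to 299 to 357 CPM in MR and 192 to 213 CPM in JQ1. Most of this sum was Itgam, which monocytes share, at 215 ± 28.0 CPM in MR and 149 ± 11.8 CPM in JQ1. Ly6g and Retnlg were at 0 in all JQ1 libraries but near 0 elsewhere too. Ly6g averaged 0.091 CPM in MR and was at 0 with dBRD9 and with DEX and iBRD9. Retnlg averaged 0.11 CPM in MR, 0.19 CPM with dBRD9 and 0.020 CPM with DEX and iBRD9. Lst1 fell by 2.999 ± 0.17 on the log2 scale, Ifitm6 by 2.77 ± 0.20, Fpr2, a formyl peptide receptor, by 2.22 ± 0.26, and Padi4, the enzyme that citrullinates histones in neutrophil traps, by 2.07 ± 0.16. Trem1, a receptor that amplifies inflammatory signals on myeloid cells, rose by 3.02 ± 0.15, from 3.61 ± 0.529 to 29.2 ± 1.36 CPM. With DEX and iBRD9, Itgam, the integrin αM of monocytes and neutrophils, was called lower (−0.64 ± 0.12, adjusted p = 0.021), a call lost in 4 of 6 fits that left out a library (adjusted p = 0.064 to 0.096), with log2 fold changes of −0.73 to −0.55 over the 6 fits. The phagocyte NADPH oxidase genes, which neutrophils and macrophages share, did not move as a group with JQ1: 2 of 6 fell and 2 rose (median 0.09). Ncf1 fell by 1.09 ± 0.06 and Ncf4 by 0.47 ± 0.07. Rac2 rose by 0.19 ± 0.06, a value that went to 0.00 when libraries were scaled by total counts.

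**Figure D4:**
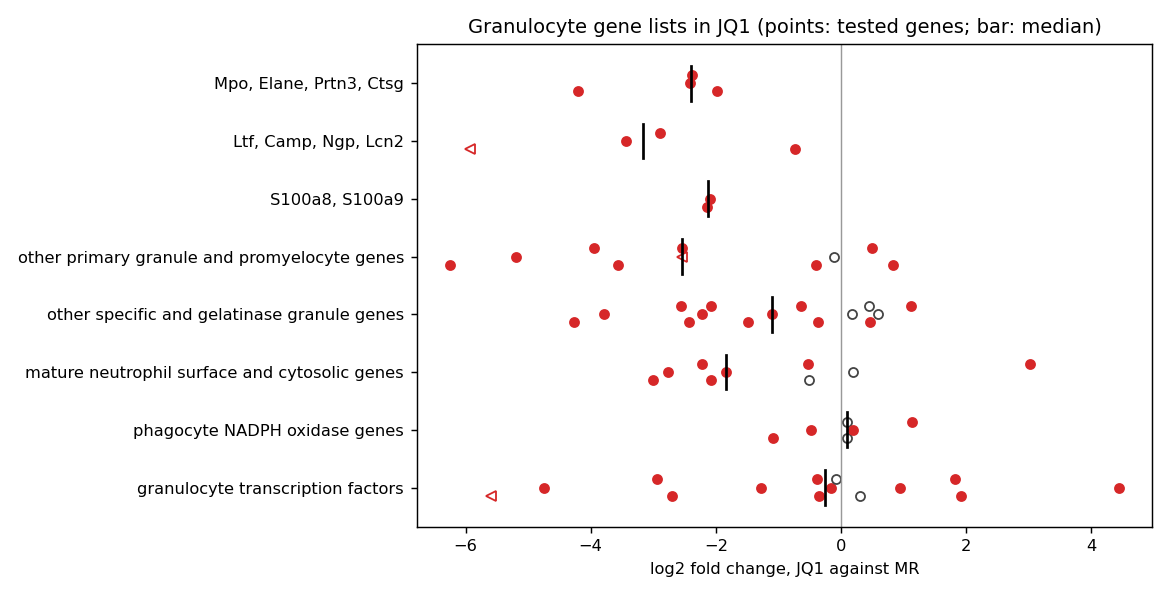
Log2 fold change with JQ1 against MR of the members (top 3 rows) and of the other granulocyte gene lists, 1 point per tested gene, with the list median as a black bar. Filled red points passed an adjusted p of 0.05, open circles did not, and triangles are bounds of genes with 0 counts in JQ1. The members and the other granule lists lie mostly below 0, and the oxidase list (median 0.09) lies on both sides.

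The list read for granulocyte transcription factors also holds factors such as Irf8 that are not of the granulocyte program alone. Genes on the list moved in both directions with JQ1, with 8 lower and 4 higher of 14 tested (median −0.26). Cebpa, the C/EBP factor of progenitors, rose by 1.82 ± 0.08 on the log2 scale, from 44.9 ± 2.38 to 159 ± 7.92 CPM (adjusted p = 3.7e-18). Cebpd rose by 1.93 ± 0.09, from 31.4 ± 0.339 to 119 ± 16.2 CPM. Cebpe, the C/EBP factor of the specific granule stage, fell by 2.71 ± 0.53, from 1.97 ± 0.519 to 0.288 ± 0.187 CPM (adjusted p = 5.9e-05). The genes of the family thus did not move together: Cebpb, named after its values were seen, was at 86.5 ± 8.29 and 81.7 ± 10.0 CPM (−0.08 ± 0.13, adjusted p = 0.61). Gfi1b, a repressor related to GFI1, had 167 counts over the MR libraries and 0 in JQ1, at least 48.3-fold lower. Gfi1 itself, named after its values were seen, had 41 counts against 1, a ratio of 35.3 with a wide 95% exact counting interval (5.99 to 1427). Egr1 rose by 4.44 ± 0.28 and Irf8, a factor that favours monocytes over granulocytes, by 0.94 ± 0.06, and Egr2 fell by 1.28 ± 0.17 and Klf4 by 0.38 ± 0.10. Spi1, the PU.1 gene, also named after its values were seen, was at 446 ± 10.3 CPM in MR and 400.5 ± 40.2 CPM in JQ1 (−0.16 ± 0.06, adjusted p = 0.022), and its call was lost in the fit of the 6 libraries compared (adjusted p = 0.057), with the Alb term (0.080) and without MR library 2 or 3 or JQ1 library 1. None of the 14 was called with dBRD9 or with DEX and iBRD9 by edgeR. Few of all tested genes were called there: 1.12% lower and 0.514% higher with dBRD9, and 1.36% and 0.591% with DEX and iBRD9.

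**Figure D5:**
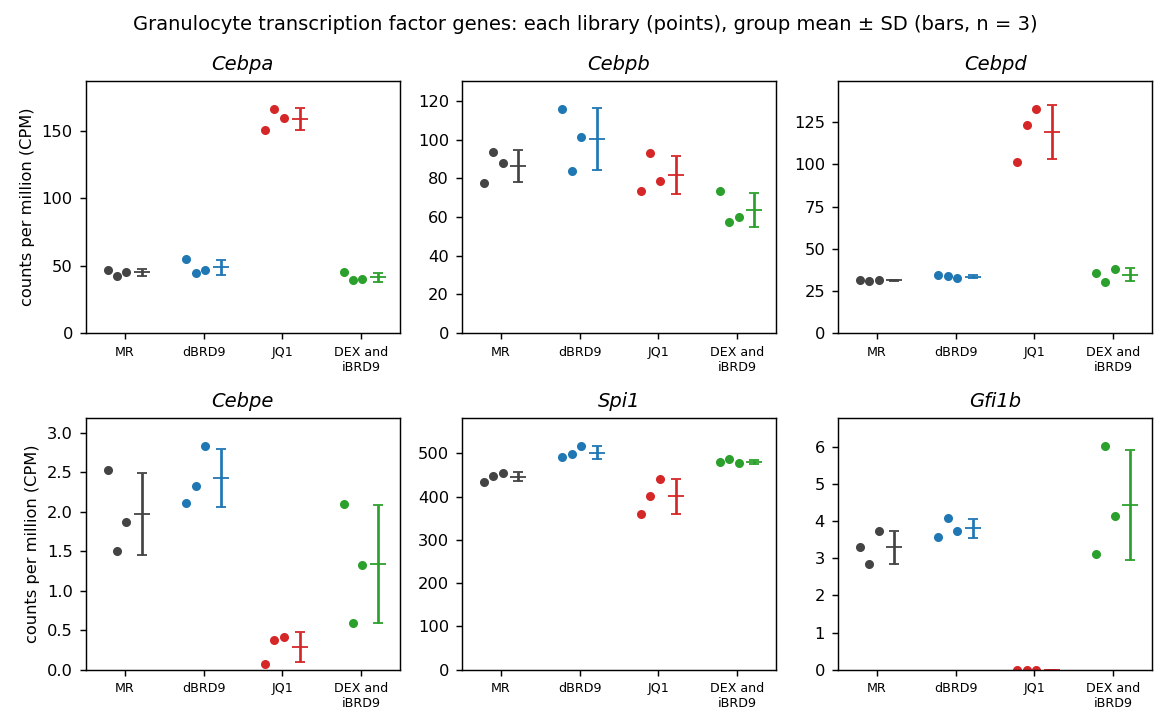
Level of 6 transcription factor genes in every library in CPM (linear axes from 0), by group, with the group mean and SD (n = 3). Cebpa and Cebpd are higher, and Cebpe and Gfi1b lower, in all JQ1 libraries than in all MR libraries.

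Markers of other cells were read beside the members because their RNA moved in the same comparison. The 16 markers of monocytes and macrophages together stood at 10973 to 11134 CPM in MR and 10334 to 11012 CPM in JQ1, with 5 higher and 9 lower. Csf1r rose by 0.58 ± 0.05 on the log2 scale, and the monocyte markers Ccr2 (−5.13 ± 0.18) and Ly6c2 (−3.32 ± 0.25) fell. The eosinophil receptor gene Ccr3 fell by 4.69 ± 0.36, and the summed level of 14 mast cell, basophil and eosinophil markers was 8.96 to 10.7 CPM in MR and 0.00 to 1.05 CPM in JQ1, with Cma1, Mcpt4 and Fcer1a at 0 in every library. Only 3 of the 14 passed the filter, and 8 were at 0 counts in each MR library. The list held 139 to 199 counts per MR library, while Prg2 and Siglecf had 37 and 31 over the MR libraries together. Of 10 markers of granulocyte and macrophage progenitors, 5 were tested, 2 fell and 0 rose with JQ1, and Cd48 fell by 0.55 ± 0.06. The median log2 fold change of the 5 tested was −0.02 against −0.01 over all tested genes. The summed level of the 10 was nevertheless lower, at 148 to 161 CPM in MR and 102 to 115 CPM in JQ1. Cd48 alone averaged 136 CPM over the 12 libraries. Against dBRD9, Cd34 was called higher in JQ1 (1.28 ± 0.40, edgeR adjusted p = 0.0074). That call was lost without JQ1 library 2 (0.96, adjusted p = 0.073). None of the 10 erythroid markers passed the filter, and they summed to 0.587 to 1.10 CPM in MR and 0.371 to 0.517 CPM in JQ1. The part of these cells in the fall of the members was not tested. As for Alb, MR library 3 (205 CPM for the 10 members together, with Alb) was above MR libraries 1 and 2 (192 and 186 CPM, without Alb) and was the highest MR library for 7 of 10 members.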

How the data were processed

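RNA-seq of 12 BMDM libraries (TRIzol, NEBNext Ultra II, NovaSeq per the study's methods) was analysed. The submitters' processing notes name cutadapt, HISAT2, HTSeq and GRCm39. The authors deposited whole-number HTSeq counts per gene, not normalized, and FPKM values, made by the authors from those counts and gene lengths. The annotation and the strand setting are not given in the sources used here. Counts were used for all tests and FPKM only for the order of genes within MR. Of 21899 gene IDs, 21700 were matched to names in GENCODE vM39.

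Genes with low counts were removed (filterByExpr, minimum count 10, minimum total 15), libraries were scaled by TMM, and all 12 were fitted with edgeR 4.0.16 (robust quasi-likelihood, R 4.3.3), with Benjamini-Hochberg adjustment over 11670 genes and a threshold of 0.05. CPM are counts scaled by TMM library sizes. Exact permutation tests used scipy 1.17.1. The scripts were tested on simulated data. Library totals of 14875951 to 18067758 set the precision, and counting intervals cover counting error only. The floor was 3 counts over a group. Alternatives were DESeq2 1.42.0, other scalings, filters and fits, a term for libraries with at least 100 Alb counts, the threshold of the study's methods (unadjusted p under 0.05 and a fold of at least 1.2) and leaving out each library.

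The members and lists were chosen with earlier results of these data known. Named genes were all members, up to 4 called genes per direction and list by size of the log2 fold change among genes averaging 1 CPM or more, the 3 genes most like each of the 3 most abundant members, defining markers, and checks of the compounds. Lists of B cell, T and NK cell, dendritic, megakaryocyte and endothelial, stromal and osteoclast markers were also read. Values of some listed genes are not reported here.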

Additional observations from a re-analysis of the deposited data

How the results depend on the processing

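All 140 recomputed member values of JQ1 against MR, and all 140 against dBRD9, kept their direction and their call, with adjusted p at most 0.018 (Lcn2 without MR library 3). Under total-count scaling, genes called higher with JQ1 numbered 2216 against MR and 2175 against dBRD9. The summed CPM of the members by total counts were 199.98 (MR), 229 (dBRD9), 31.8 (JQ1) and 173 (DEX and iBRD9).

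For dBRD9 against MR, members called higher numbered 0 by the main test and 1 in the 6-library fit, with no filter and by the study's threshold, and 0 to 1 when a library was left out. Genes called higher numbered 118 by DESeq2, 346 in the fit of 9 libraries without JQ1, 276 in the 6-library fit, 174 with no filter, 1 with the Alb term, 380 by the study's threshold and 6 to 64 with a library left out, from 60. Genes called lower numbered, in the same order, 281, 578, 500, 361, 0, 417 and 9 to 81, from 131. S100a8 turned to −0.16 on the log2 scale with the Alb term. With a library left out, Elane ranged from −0.15 to 0.085 and Ctsg from −0.15 to 0.090.

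For DEX and iBRD9 against MR, members called lower numbered 1 by the main test, 0 by DESeq2, 2 in the 6-library fit (Camp and Ltf), 0 with the Alb term, 2 by the study's threshold, and 0 with any library left out. DESeq2 gave Camp a log2 fold change of −1.10 but no adjusted p, so its count of 0 does not decide on Camp. Genes called higher numbered, in the order above, 126, 251, 402, 154, 20, 278 and 10 to 59, from 69, and genes called lower 240, 413, 652, 419, 81, 521 and 43 to 111, from 159. With the Alb term Elane turned to 0.039 and Lcn2 to 0.013. With a library left out, Elane ranged from −0.25 to 0.039, Prtn3 from −0.28 to 0.11 and Lcn2 from −0.34 to 0.013. The cause of these changes was not tested. No paired analysis was possible because the labels give no replicate numbers that tie libraries across groups.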

Other observations

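Marker lists of several other lineages also had lower summed levels in the JQ1 libraries than in the MR libraries. The summed level of T and NK cell markers was 1.81 to 3.16 CPM in MR and 0.295 to 0.698 CPM in JQ1, and that of B and plasma cell markers 1.12 to 1.77 CPM and 0.0618 to 0.419 CPM. These 2 sums rest on few counts, 28 to 59 and 19 to 33 per MR library. Only 1 of the 9 T and NK genes found and 1 of the 7 B and plasma cell genes found passed the filter. Dendritic cell markers summed to 266 to 316 CPM in MR and 65.7 to 77.9 CPM in JQ1, megakaryocyte and endothelial markers to 235 to 244 CPM and 101 to 123 CPM, and stromal markers to 21.7 to 27.5 CPM and 12.2 to 13.2 CPM. Of 8 tested osteoclast markers, 7 fell and 1 rose with JQ1 by edgeR, at a median log2 fold change of −2.46 against −0.01 over all genes.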
